A study of Rattus norvegicus with 48 samples.

Results

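The motile cilium genes of rat cortical cultures were described here from the normalized RNA-seq values of 48 libraries. Members were the genes with the symbols Gmnc, Mcidas, Ccno, Foxj1, Deup1 or Rfx2 and all genes whose symbols begin with Dnah, Dnai, Cfap or Tekt and a digit, or with Rsph, provided their mean over the 48 libraries was at least 0.5 CPM (counts per M reads of the scaled library). Of 57 matching genes 51 reached this minimum, out of 30211 genes listed. They comprised 5 regulators, 9 axonemal dynein heavy chains, 2 dynein intermediate chains, 6 radial spoke genes, 4 tektins and 25 CFAP genes. Foxj1, named in the rule, was not analysed here. The members just above the minimum were Mcidas, with a mean of 0.643 CPM, and Rsph6a with 1.39 CPM, and the genes just below it were Tekt5 with 0.335 CPM and Dnah8 with 0.116 CPM. Cfap58, Cfap58l1, Cfap97d1 and Rsph4a were at or near 0. The set was chosen by the low level of Gmnc in Tat against Control cultures, so that the levels of Gmnc in Tat and Control cultures, and its differences from them in other groups, are given as a description with no test.

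All libraries came from primary mixed cortical cultures of 18-day-old Sprague-Dawley rat fetuses, kept for 21 days in vitro. The labels call the cells neurons, but markers of astrocytes, microglia, oligodendrocytes and ependymal cells were present as well. There were 16 groups of 3 libraries. Control cultures received neither drug nor viral protein, Cocaine cultures received 25 µM cocaine for 24 h, Tat cultures received 6 ng/mL of the recombinant HIV-1 protein Tat for 48 h, and Tat-Cocaine cultures received Tat for 48 h and then cocaine for 24 h. Each of 4 compounds was given for 48 h alone, together with Tat (Tat-4OI and so on) and together with Tat before cocaine (Tat-Cocaine-4OI and so on). The compounds were 4OI (4-octyl itaconate, a cell-permeable itaconate ester) at 250 µM, Amlexanox (an inhibitor of the kinases TBK1 and IKKε) at 25 µM, Tazemetostat (an inhibitor of the histone methyltransferase EZH2) at 3 µM and Senicapoc (a blocker of the potassium channel KCa3.1) at 1 µM. Cocaine without Tat was not combined with a compound. For imaged cultures at a higher Tat dose, the paper describes 24 h more, cocaine present or not. The paper does not state whether sequenced cultures with Tat or a compound but no cocaine were kept for the added 24 h. Cocaine and added time may therefore not be told apart where groups with Tat and cocaine are compared with groups without cocaine. The sources do not state whether the 3 libraries of a group came from separate cell preparations, and p-values then measure only the spread between these libraries, which may be technical.

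Motile cilia are beating hairs built on an axoneme of doublet microtubules. In the brain they are known from the multiciliated ependymal cells that line the ventricles. Gmnc (GemC1) and Mcidas (multicilin) are related nuclear coiled-coil proteins that act with E2F and DP factors at the top of the multiciliation programme. Gmnc acts upstream of Mcidas, and together they switch on Foxj1, Ccno, Deup1 and the Rfx factors. Deup1 builds the deuterosomes on which many new centrioles form, Ccno (cyclin O) is needed for that amplification, and Rfx2 binds X-box sequences in the promoters of ciliary genes. The remaining members are mostly structural: Dnah and Dnai genes encode the motor and intermediate chains of the dynein arms, Rsph genes the radial spokes, Tekt genes the tektin filaments inside the doublets, and Cfap genes a heterogeneous set of cilia and flagella associated proteins.

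The promoter stretches below are shown because they hold the letters these factors are known to bind, or, for Gmnc, because its level is the one the set was built around. RefSeq sequences on the rat build GRCr8 were matched by symbol or synonym for 45 of the 51 members, and windows from 250 bases before to 50 bases after the start of each gene were searched on both strands. For Gmnc the 250 bases before the start are given (chr11:87339367-87339616, plus strand), in which none of the searched motifs was found. For the others 50 bases are given 5′ to 3′ on the strand of the gene, with the match in capitals, at chr2:46369810-46369859 (plus strand) for Mcidas, chr8:20723586-20723635 (minus) for Deup1, chr10:54766042-54766091 (minus) for Dnah2, chr16:1944670-1944719 (plus) for Dnah12 and chr11:43677583-43677632 (minus) for Cfap298.
Gmnc: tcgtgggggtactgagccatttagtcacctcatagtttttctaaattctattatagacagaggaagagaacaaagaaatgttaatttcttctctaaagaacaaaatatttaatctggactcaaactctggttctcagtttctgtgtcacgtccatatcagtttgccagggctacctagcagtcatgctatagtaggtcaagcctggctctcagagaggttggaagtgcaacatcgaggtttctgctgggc
Mcidas: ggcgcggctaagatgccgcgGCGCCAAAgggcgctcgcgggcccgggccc
Deup1: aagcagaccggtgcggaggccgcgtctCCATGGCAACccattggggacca
Dnah2: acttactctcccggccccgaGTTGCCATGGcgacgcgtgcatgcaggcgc
Dnah12: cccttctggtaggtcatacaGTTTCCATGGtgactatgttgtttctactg
Cfap298: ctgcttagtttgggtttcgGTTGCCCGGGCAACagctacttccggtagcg

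A palindromic X-box, that is GTTNCC, any 2 bases and GGNAAC, stood in the promoter of Cfap298, which is 1 of 45 members (2.22%) against 0.459% of 27457 RefSeq promoters of the same length. A shorter form, GTTNCC followed directly by ATGG, which shares its left arm with the palindrome, stood in those of Deup1, Dnah2 and Dnah12 (6.67% against 1.02% of all promoters). An E2F motif, TTTCCCGC or TTTGGCGC, was found for Mcidas and Cfap45 (4.44% against 1.53%), and the forkhead motif GTAAACA for Cfap20 and Tekt3 (4.44% against 3.76%). These matches are descriptions of letters in the windows, and with 1 to 3 members each they carry no test. In the GRCr8 gene order Ccno and Mcidas are adjacent protein-coding genes, whereas Gmnc lies on another chromosome between Ostn and Il1rap.

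Depth, estimated from the step between the low values of each library, was 17.5 to 29.1 M reads on genes per library (median 22.4 M), so that 0.5 CPM stood for 8.58 to 15 reads. Cocaine replicate 3 stood apart from the others, with a summed level of 8 oligodendrocyte markers of 26016 CPM against 320 to 2523 CPM in the remaining 47 libraries. Differences between groups are given as log2 fold changes of CPM + 0.5 with their standard error (SE), and a gene was called at a Benjamini-Hochberg adjusted p (FDR) under 0.05 over all 15890 genes tested. All 51 members passed the filter for testing, at least 0.5 CPM in 3 libraries. CPM is not scaled for gene length, and levels are therefore compared between groups and not between genes.

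Gmnc was high in nearly all cultures without Tat and low in all cultures with Tat. It stood at 19.9, 14.7 and 27.9 CPM in the 3 Control libraries and at 1.12, 1.61 and 1.47 CPM in the Tat libraries, so that the groups did not overlap. The Cocaine libraries, at 20.5, 26 and 9.49 CPM, lay within or below the range of Control. With Tat and cocaine together Gmnc was at 2.04, 1.27 and 1.05 CPM. Over all 30 libraries with Tat it ranged from 0.966 to 3.59 CPM (median 1.72), and over the 18 without Tat from 1.32 to 27.9 CPM (median 12.6). Of these 18 libraries 16 exceeded every library with Tat, and the remaining ones were Amlexanox replicates 2 and 3. In bulk RNA, fewer cells that make a transcript and less of it per cell cannot be told apart. In the order of the 16 group means, from 1.27 ± 0.26 CPM (SD, n = 3) in Tat-Cocaine-Tazemetostat to 20.8 ± 6.63 CPM in Control, each group overlapped with its neighbour except at 1 step, from Amlexanox at 3.45 ± 3.04 CPM to 4OI at 10.0 ± 0.402 CPM.

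**Figure D1:**
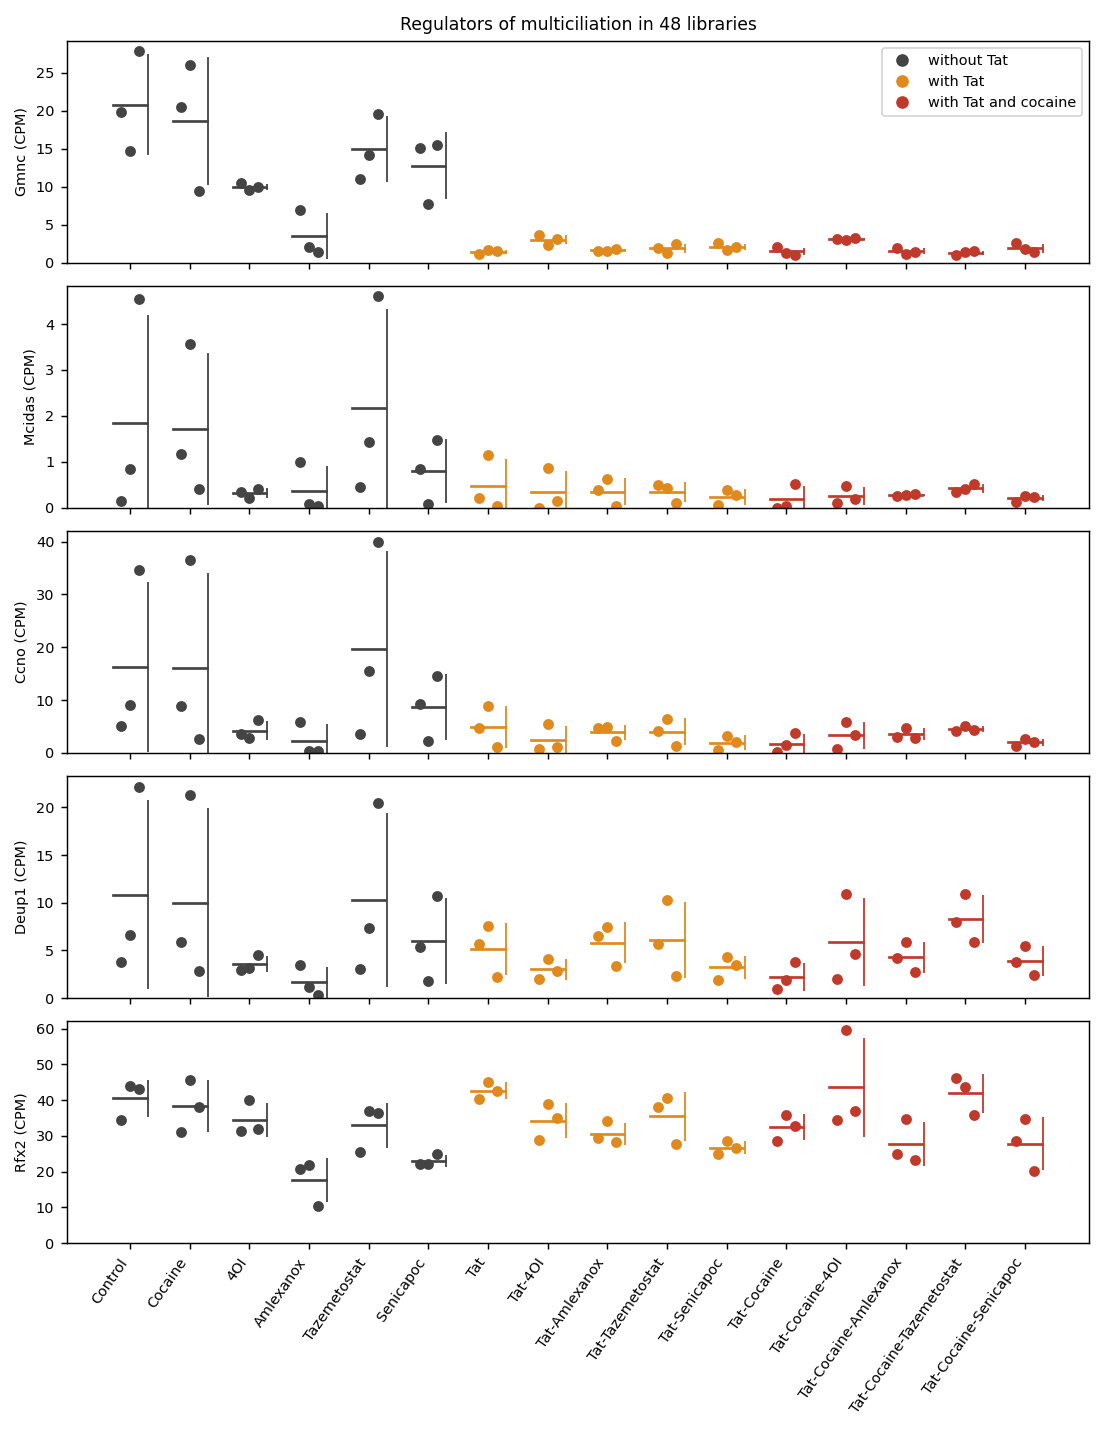
Levels of the 5 regulators (CPM, linear axes from 0) in the 48 libraries. Points are libraries, horizontal bars are group means and vertical lines are ± 1 SD, cut at 0. Gmnc is at 3.59 CPM or less in all 30 libraries with Tat, whereas Rfx2 shows no such separation.

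The other regulators were less cleanly separated by Tat. Ccno stood at 5.06, 9.12 and 34.6 CPM in Control, at 4.66, 8.92 and 1.13 CPM in Tat and at 0.0851, 1.43 and 3.78 CPM in Tat-Cocaine. The Control libraries thus differed among themselves nearly as much as the groups did, and only Tat-Cocaine lay wholly below Control. Of the 18 libraries without Tat 7 exceeded the highest library with Tat, at 8.92 CPM. Mcidas was at 0.153, 0.834 and 4.54 CPM in Control and between 0 and 1.15 CPM in the 30 libraries with Tat, and 6 of 18 libraries without Tat lay above that range. At these levels Mcidas rests on few reads. Deup1 was at 3.80, 6.57 and 22.2 CPM in Control, 5.63, 7.59 and 2.17 CPM in Tat and 0.937, 1.92 and 3.74 CPM in Tat-Cocaine, and 3 of 18 libraries without Tat exceeded all with Tat. Rfx2 was at 34.5, 43.9 and 43 CPM in Control and 40.3, 45 and 42.5 CPM in Tat, and no library without Tat exceeded the highest library with it. Against Control, the log2 fold changes in Tat cultures were -3.45 for Gmnc and in Tat-Cocaine cultures -2.87 for Ccno and -1.85 for Deup1.

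The structural members in Tat cultures stayed nearer to Control. Their 3 Tat libraries lay wholly below the 3 Control libraries for Dnah2, Cfap70, Tekt3, Cfap100, Cfap20 and Cfap410, which with Gmnc makes 7 of 51 members (13.7%), against 13.6% of all genes in that direction. For 0 members did the Tat libraries lie wholly above (19.4% of all genes). In Tat-Cocaine cultures 20 members lay wholly below Control (39.2% against 13.3% of all genes) and again 0 above (15.1% of all genes). The median difference over the members was -0.35 with Tat and -0.88 with Tat and cocaine, against 0.01 over all genes in both comparisons. As an example, Cfap43, which acts at the tether of inner arm dyneins, stood at 68.9, 111 and 148 CPM in Control, 75.9, 75.8 and 62.0 CPM in Tat and 35.1, 46.5 and 69.5 CPM in Tat-Cocaine. The Control libraries spanned a wide range, and the lowest of them overlapped with both other groups.

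The response to Tat was also tested outside the Control and Tat groups, in the cultures given 1 of the 4 compounds with or without Tat (12 libraries against 12). These libraries entered the minimum mean over all 48, and the set was chosen with earlier results of these data known. Gmnc fell, by 1.81 on the log2 scale (SE 0.17, FDR = 2.57e-10), from a mean of 10.3 to 2.15 CPM. Cfap20, a conserved protein of the inner junction of the doublet, fell from 61.3 to 50.5 CPM (log2 fold change -0.28, SE 0.04), and its 12 libraries with Tat did not overlap with the 12 without. Cfap36 fell as well, from 168 to 140 CPM (-0.25, SE 0.06, FDR = 0.000905). In contrast 15 members rose, so that 18 of 51 were called (35.3%), against 48.8% of all genes. By direction, 5.88% of members fell against 22.1% of all genes, and 29.4% rose against 26.7%. The median difference was 0.36 over the members and -0.00 over all genes. At an unadjusted p under 0.05 there were 27 members. Such unadjusted counts, except for Senicapoc alone, are given here and below without the share of all genes. Most members vary together, so that they are not independent.

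Those that rose were mostly structural members, but so is most of the set by its rule. Their kind is therefore no result in itself, and the share that rose was close to that of all genes, as given above. Cfap206, which sits at the base of a radial spoke, rose from 13.2 to 22.3 CPM (log2 fold change 0.79, SE 0.21, FDR = 0.00248), the dynein heavy chain Dnah6 from 19.1 to 28.5 CPM (0.75, SE 0.28, FDR = 0.0260), Cfap65 from 10.5 to 16.4 CPM (0.74, SE 0.28, FDR = 0.0290) and the radial spoke head gene Rsph1 from 16.7 to 27.8 CPM (0.71, SE 0.18, FDR = 0.00132). Cfap43 (0.67), Cfap52 (0.66), Rsph10b (0.60), Cfap45, Cfap44, Tekt2, Cfap77, Tekt1, Cfap157 and Cfap300 followed, the last at 0.47. Among the regulators Rfx2 rose slightly, from 27 to 31.8 CPM (0.29, SE 0.11, FDR = 0.0292). Ccno (-0.80, SE 0.46, FDR = 0.146), Mcidas (-0.51, SE 0.29, FDR = 0.142) and Deup1 (0.11, SE 0.35, FDR = 0.819) did not pass the test. By family, 9 of 25 CFAP genes rose and 2 fell, and 1 of 9 dynein heavy chains, 0 of 2 intermediate chains, 2 of 6 radial spoke genes and 2 of 4 tektins rose. The rise rested on the Amlexanox cultures: without them 6 members were called, all of them lower, while 15.6% of all genes fell and 20.6% rose. Without the 4OI cultures 34 members were called, and without Tat-Tazemetostat replicate 3 there were 29 calls. The counts without 4OI and without that library are given without the share of all genes and describe stability only.

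Within single compounds Gmnc was lower with Tat in each case, but the rest of the set behaved differently. In 4OI cultures Gmnc went from 10.4, 9.62 and 9.96 CPM to 3.59, 2.37 and 3.11 CPM with Tat (log2 fold change -1.59, FDR = 0.0044). In Tazemetostat cultures it went from 11.1, 14.1 and 19.6 CPM to 1.92, 1.28 and 2.44 CPM (-2.69, FDR = 1.07e-06), and in Senicapoc cultures from 15.1, 7.66 and 15.5 CPM to 2.53, 1.70 and 1.98 CPM (-2.32, FDR = 1.48e-05). In these 3 comparisons the groups did not overlap and Gmnc fell. In Amlexanox cultures it went from 6.93, 2.09 and 1.32 CPM to 1.56, 1.54 and 1.79 CPM. These groups overlapped, since 1 Amlexanox library without Tat was below all 3 with Tat, and the difference did not pass the test (-0.62, SE 0.34, FDR = 0.143). An F test that the Gmnc response to Tat differed among the 4 compounds gave FDR = 0.0745.

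Few other members were called with Tat in 3 of the compounds. In 4OI cultures Gmnc, Cfap36 and Cfap20 fell (3 of 51 members or 5.88%, against 5.18% of all genes called and 2.1% falling), in Tazemetostat cultures Gmnc and Cfap20 (2 members, against 16.1% of all genes called and 5.63% falling) and in Senicapoc cultures Gmnc, Cfap20 and Cfap36 (3 members, against 16% called and 5.15% falling), and 0 members rose in any of them. Without single 4OI or Tat-4OI libraries (4OI replicates 1 or 3, Tat-4OI replicates 2 or 3), and without Tazemetostat replicates 2 or 3 or Tat-Tazemetostat replicate 3, 1 member was called in those comparisons. In Amlexanox cultures 37 members rose with Tat and 1, Rsph6a, fell (17% of all genes fell). That is 74.5% of members called against 39.6% of all genes, and 72.5% rising against 22.6% of all genes. The median difference was 1.40 over the members and 0.02 over all genes. In 38 members the 3 Tat-Amlexanox libraries lay wholly above the 3 Amlexanox libraries (74.5%, against 27.1% of all genes). Leaving out Amlexanox replicate 3 lowered the count to 23.

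Dnah6 stood at 8.18, 6.21 and 2.89 CPM in Amlexanox cultures and at 29.5, 50.5 and 22.2 CPM in Tat-Amlexanox cultures (log2 fold change 2.49, SE 0.56, FDR = 0.0013). Cfap206 stood at 7.27, 7.18 and 2.54 CPM and then at 37.3, 31.7 and 23 CPM (2.43, SE 0.42), and Cfap65 at 7.43, 3.53 and 1.25 CPM and then at 19.4, 29.4 and 14.7 CPM (2.44, SE 0.56). In each the libraries without Tat were all below those with Tat. Cfap43 went from 36.2, 32 and 12.0 CPM to 102, 135 and 83.1 CPM. Of the regulators, Rfx2 (0.84) and Deup1 (1.77, FDR = 0.0428) rose, while Ccno (1.39, SE 0.92) and Mcidas (0.07, SE 0.58) did not pass the test. Rsph6a, the radial spoke paralogue best known from sperm flagella, went the other way, from 1.84, 4.15 and 2.50 CPM to 0.334, 0.770 and 1.22 CPM (-1.39, SE 0.36, FDR = 0.0041). Cfap100, a partner of the inner arm dyneins, was the 1 member whose response to Tat differed among the compounds by the F test (FDR = 0.0475, against 0.327% of all genes, and 34 members at an unadjusted p under 0.05). It was at 11.6, 13.9 and 10.8 CPM in 4OI cultures and 6.10, 5.16 and 8.03 CPM in Tat-4OI cultures, but at 7.77, 3.57 and 2.23 CPM in Amlexanox cultures and 13.5, 11.3 and 9.81 CPM in Tat-Amlexanox cultures.

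**Figure D2:**
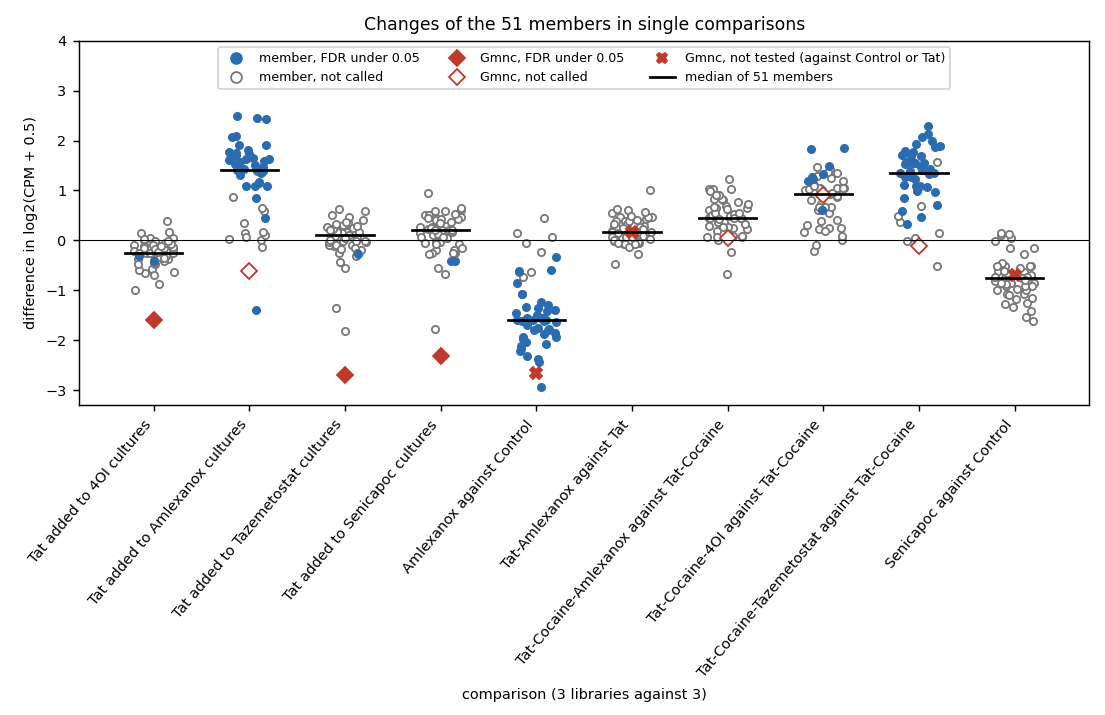
Log2 fold changes (difference in log2(CPM + 0.5)) of the 51 members in 10 comparisons of 3 libraries against 3. Points are genes, filled where the FDR is under 0.05, red symbols are Gmnc (crosses in comparisons with Control or Tat, where it was not tested, and diamonds elsewhere, open where not called) and black bars are medians. The median of the members lies at 1.40 for Tat added to Amlexanox, at -1.59 for Amlexanox against Control and at 1.35 for Tazemetostat added to Tat and cocaine. The Control, Amlexanox and Tat-Cocaine libraries each enter several of these comparisons.

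The high response to Tat in the presence of Amlexanox went with a low starting level. Comparisons of a single compound in a single background were added after the data had been seen, and those against Control share its libraries with the comparison that chose the set, while Amlexanox against Control and Tat added to Amlexanox share the Amlexanox libraries. Against Control, 42 members fell with Amlexanox alone, which is 82.4% against 11.4% of all genes called and 7.6% of all genes falling, and 0 rose. The median difference was -1.59 over the members and 0.01 over all genes. The 3 libraries did not overlap with Control in 42 members (10.9% of all genes in that direction). Gmnc is counted among them as a description, at a log2 fold change of -2.66, and 41 of the 50 remaining members fell. Ccno fell by 2.93 on the log2 scale (SE 0.92, FDR = 0.0334), Deup1 by 2.33 (SE 0.70, FDR = 0.0265) and Rfx2 by 1.23 (SE 0.22). For Ccno the groups overlapped, since Amlexanox replicate 1, at 5.89 CPM, lay above the lowest Control library, at 5.06 CPM. Mcidas was at 1.00, 0.0776 and 0.0348 CPM and was not called. Dnah6, at 15.4, 31.4 and 62.5 CPM in Control, fell by 2.45 and Cfap44, at 31.9, 64.8 and 72.6 CPM in Control and 11.2, 15 and 5.57 CPM in Amlexanox cultures, by 2.38. In Dnah6 and Cfap44 no Amlexanox library reached the lowest Control library. By family, 20 of 25 CFAP genes, 8 of 9 dynein heavy chains, both intermediate chains, 4 of 6 radial spoke genes and all 4 tektins fell. Cfap20, Cfap36, Cfap53, Cfap97, Cfap157, Dnah17, Rsph6a and Rsph9 were not called.

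The call count for Amlexanox against Control depended on single libraries. It was 5 without Amlexanox replicate 3, 11 without Control replicate 3 and 0 in a fit to these 6 libraries alone, although the direction of the members named held. With Tat present, adding Amlexanox changed 0 members against Tat (0.837% of all genes called, 3 members at an unadjusted p under 0.05) and 0 against Tat-Cocaine (0.925% of all genes, 3 members unadjusted) by limma. The F test that the effect of Amlexanox differed among the 3 backgrounds called 31 members (60.8%, against 4.83% of all genes), Cfap43 with FDR = 0.00867 among them. Besides Gmnc, whose Control and Tat levels chose the set, these were 30 of 50. Without Control replicate 3 or Amlexanox replicate 3 this count was 1. It was 14 to 19 without Control replicate 2, Tat-Cocaine replicates 1 or 2, Amlexanox replicate 2 or Tat-Cocaine-Amlexanox replicate 2.

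The highest levels of most structural members were found in Tat-Cocaine-Tazemetostat cultures. Against Tat-Cocaine, 41 members rose (80.4%, against 28.7% of all genes called and 15.2% rising) and 0 fell, with a median difference of 1.35 over the members and 0.02 over all genes. The groups did not overlap in 42 members (24.8% of all genes in that direction). Dnah6 went from 7.24, 10.7 and 24.1 CPM to 53.8, 95.2 and 48.5 CPM (log2 fold change 2.30, SE 0.56, FDR = 0.0078), Dnah7, another inner arm heavy chain, from 1.53, 3.36 and 3.82 CPM to 13, 21.0 and 9.44 CPM (2.14, SE 0.50, FDR = 0.0069) and Rsph1 from 11, 15.1 and 23.9 CPM to 49.1, 59.6 and 38.7 CPM (1.58, SE 0.35, FDR = 0.0061). In each of these genes every library with Tazemetostat lay above every library without. Gmnc did not move with them, at 2.04, 1.27 and 1.05 CPM without and 0.966, 1.38 and 1.46 CPM with Tazemetostat (-0.12, SE 0.34, FDR = 0.808). Deup1 rose by 1.80 (SE 0.70, FDR = 0.0499), and Ccno (1.57, SE 0.92), Mcidas and Rfx2 did not pass the test. Without Tat-Cocaine replicate 1, or without Tat-Cocaine-Tazemetostat replicate 2, the count was 0, and without Tat-Cocaine replicate 2 it was 20. Tazemetostat against Control and Tat-Tazemetostat against Tat called 0 members and 0 of all genes by limma (0 members in both at an unadjusted p under 0.05). The F test that the effect of Tazemetostat differed among the 3 backgrounds called 0 members as well. At an unadjusted p under 0.05 it gave 36 members, a count without the share of all genes and in genes that vary together.

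4OI in the same background gave fewer calls. Against Tat-Cocaine, 8 members rose in Tat-Cocaine-4OI cultures (15.7%, against 7.36% of all genes called and 4.07% rising), namely Dnah7 (log2 fold change 1.85), Dnah6 (1.82), Cfap57, Cfap43, Cfap73, Dnai1, Cfap161 and Rsph3. Dnah6 stood at 22.8, 94.6 and 42.3 CPM there, and only 1 of these libraries lay below the highest Tat-Cocaine library, at 24.1 CPM. In 14 members the groups did not overlap (27.5%, against 11.9% of all genes). The count was 0 without Tat-Cocaine replicate 1 or Tat-Cocaine-4OI replicate 2, 2 to 3 without Tat-Cocaine replicate 2 or Tat-Cocaine-4OI replicate 3, and 14 to 21 without Tat-Cocaine replicate 3 or Tat-Cocaine-4OI replicate 1. Gmnc was somewhat higher with 4OI than without in both backgrounds with Tat, at 3.59, 2.37 and 3.11 CPM against 1.12, 1.61 and 1.47 CPM in Tat cultures (0.89, a description) and at 3.04, 2.97 and 3.22 CPM against 2.04, 1.27 and 1.05 CPM in Tat-Cocaine cultures (0.91, SE 0.34, FDR = 0.107). The groups did not overlap in either comparison, but the difference in Tat-Cocaine cultures did not pass the test. Without Tat the direction was the opposite, also as a description. Gmnc stood at 10.4, 9.62 and 9.96 CPM with 4OI alone and at 19.9, 14.7 and 27.9 CPM in Control, with no overlap.

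Senicapoc alone called 0 members and 0 of all genes against Control by limma, with 26 members and 1378 of all genes at an unadjusted p under 0.05. The median over the members was -0.76, and in 15 members (29.4%, against 6.46% of all genes) the 3 Senicapoc libraries lay wholly below Control. Dnah6, for example, stood at 10.0, 7.35 and 19.6 CPM in Senicapoc cultures. 4OI alone called 1 member, Cfap36 (0.48), at 224, 178 and 216 CPM against 139, 128 and 180 CPM in Control, which overlapped slightly (3.15% of all genes called).

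Pooled over the 3 backgrounds, 9 libraries against 9, each compound called at most 3 members. With 4OI Cfap36 (0.28), Cfap97 (0.13) and Rsph3 (0.29) rose (5.88% of members, against 22.8% of all genes called and 11% rising). With Tazemetostat Cfap206 (0.79, FDR = 0.0357), Cfap43 (0.74) and Rsph1 (0.65) rose (against 11.4% of all genes called and 6.75% rising), with 28 members at an unadjusted p under 0.05. The count for Tazemetostat was unstable. It was 24, 15, 10, 5 and 5 without Tat-Tazemetostat replicate 3, Control replicate 3, Tat-Cocaine replicate 3, Tazemetostat replicate 1 and Tat-Cocaine-Tazemetostat replicate 3, and 1 without Control replicate 2. It was 0 without Tat replicate 3, Control replicate 1, Tat-Cocaine replicates 1 or 2, Tazemetostat replicates 2 or 3, Tat-Tazemetostat replicate 2 or Tat-Cocaine-Tazemetostat replicates 1 or 2, and 0 with no filter or in a fit to the groups compared. It was 39 with library weights and 12 with a replicate block. With Amlexanox Rfx2 (-0.65, FDR = 0.00144) fell, Gmnc stood at -0.81 as a description, since Control and Tat are among the groups it is set against, and 2 members including Gmnc were counted (against 7.99% of all genes called and 3.88% falling), and with Senicapoc Rfx2 (-0.57, FDR = 0.0224) fell (against 1.16% called and 0.699% falling), a call kept in 22 of 28 alternatives. Rfx2 stood at 22, 22.2 and 24.8 CPM in Senicapoc cultures and at 20.8, 21.7 and 10.4 CPM in Amlexanox cultures, all below the lowest Control library at 34.5 CPM. Cocaine alone called 0 members against Control by limma (0.201% of all genes, 2 members at an unadjusted p under 0.05), also without Cocaine replicate 3. Cocaine added to Tat, pooled over 5 backgrounds, called Rsph6a (-0.63, FDR = 0.019) and Cfap36 (0.18, FDR = 0.048), against 4.55% of all genes called, 2.91% falling and 1.64% rising. The call of Cfap36 was lost in 30 of 45 alternatives, with no filter, without the trend and without most single libraries, with an FDR of up to 0.301, and that of Rsph6a was kept in 42 of 45. When Tat and cocaine together were set against the compound-treated cultures without them, a comparison added after the data had been seen, Gmnc (-1.96), Rsph6a (-1.17) and Cfap20 (-0.18) fell and 34 members rose, led by Cfap65 (1.31), Dnah6 (1.25), Cfap206 (1.23) and Cfap73 (1.04). This is 72.5% of members called, against 66.4% of all genes, with 31.4% of all genes falling and 35% rising.

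**Figure D3:**
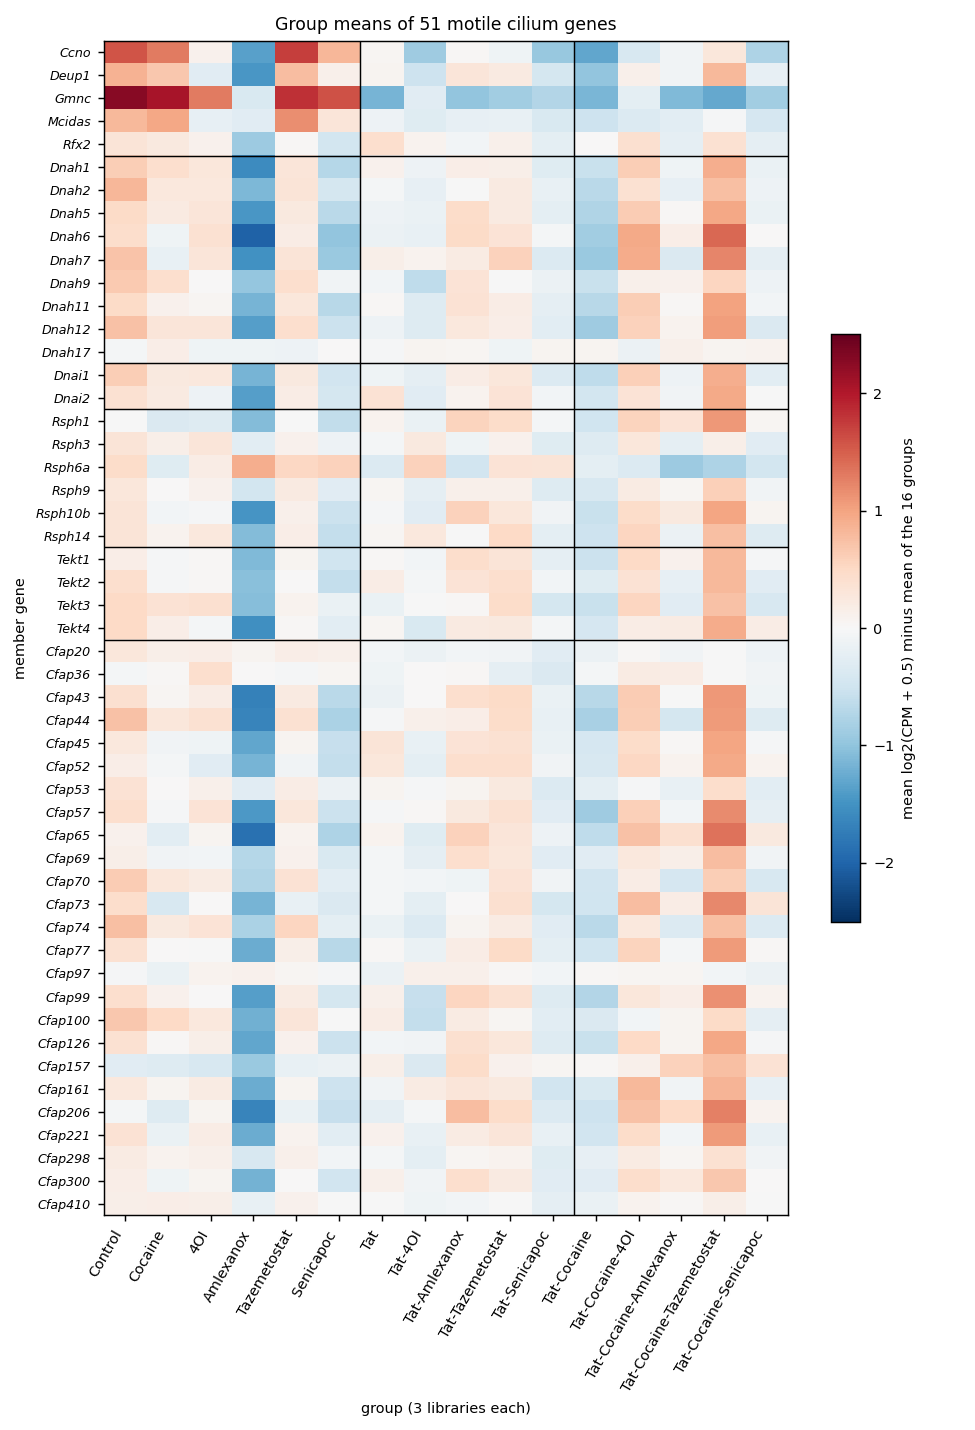
Mean log2(CPM + 0.5) of the 51 members in each of the 16 groups, as the difference from the mean of the 16 groups (colour scale, -2.5 to 2.5), by family from top to bottom: regulators, dynein heavy chains, dynein intermediate chains, radial spokes, tektins and CFAP genes. Vertical lines separate groups without Tat, with Tat and with Tat and cocaine. Most structural members are lowest with Amlexanox alone and highest in Tat-Cocaine-Tazemetostat, while Gmnc is low in all groups with Tat and also with Amlexanox alone.

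Most structural members varied together from library to library. After subtraction of the group means, 42 of the 46 members that are not regulators had a median Pearson correlation of at least 0.5 with the others over the 48 libraries (0.55 to 0.91, median 0.87). The exceptions were Cfap36, Cfap97, Dnah17 and Rsph6a. These values are a description of genes measured in the same libraries, which share depth and scaling. The summed level of the 42 genes was lowest in Amlexanox cultures, at 450 ± 128 CPM (SD, n = 3), followed by Tat-Cocaine at 644 ± 184 CPM and Senicapoc at 668 ± 173 CPM, and highest in Tat-Cocaine-Tazemetostat at 1610 ± 386 CPM. Control stood at 1186 ± 428 CPM and Tat at 881 ± 105 CPM. Within groups the highest library exceeded the lowest 1.24 to 2.83 times, so that most neighbours in this order did not differ beyond their spread. Deup1, Rfx2, Ccno and Mcidas followed the structural members in the same deviations (median correlations 0.82, 0.74, 0.68 and 0.60), whereas the deviations of Gmnc had a median correlation of 0.17 with the 42 genes. That value pools libraries with Tat, where Gmnc was low throughout, and libraries without it. Within Cocaine, Amlexanox, Tazemetostat and Senicapoc cultures the 3 libraries had the same order by Gmnc as by the summed level. Within Control, 4OI and all groups with Tat the orders differed, and in Tat-Cocaine cultures they were opposite. These orders were not tested. Among the regulators themselves the deviations of Ccno and Mcidas (0.91) and of Ccno and Deup1 (0.94) were close.

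Gmnc and the 42 genes were correlated across the group means without Tat, but not on balance across those with it. Over the 6 group means without Tat the correlation of Gmnc with each of the 42 genes was 0.73 to 0.98 (median 0.89), and over the 10 with Tat it was -0.66 to 0.53 (median -0.07). Over all 16 the median was 0.02. Across the 16 group means Mcidas (0.83) and Ccno (0.75) were closest to Gmnc among the regulators, followed by Deup1 (0.42) and Rfx2 (0.07). These correlations carry no test. With so few groups those without Tat lean on the low Amlexanox mean and on the high Control mean, whose Gmnc level helped to choose the set. Between these the orders differed. Gmnc was lower in 4OI than in Senicapoc cultures (10.0 and 12.8 CPM), whereas the summed level of the 42 genes was higher (959 and 668 CPM).

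**Figure D4:**
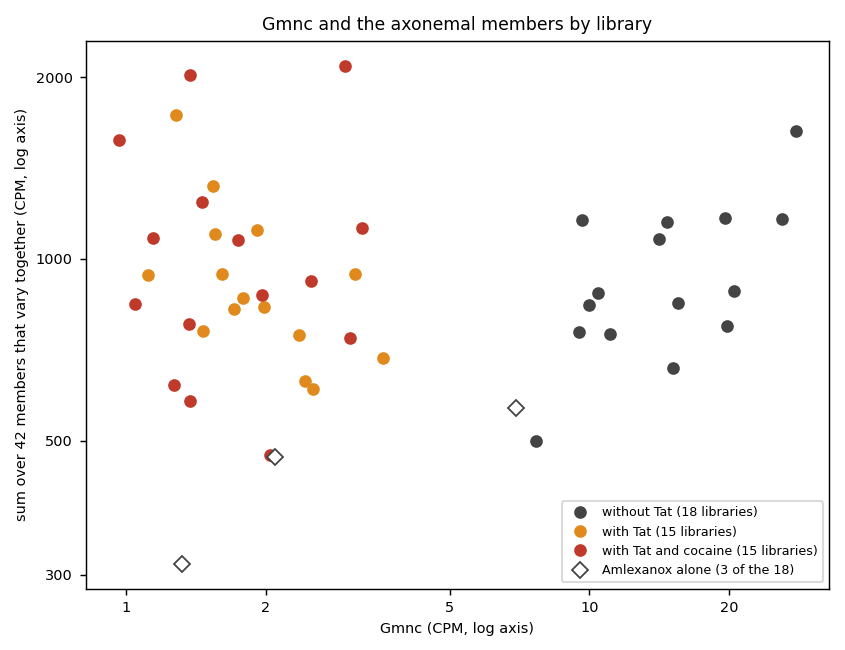
Gmnc (CPM, log axis) against the summed level of the 42 members that vary together (CPM, log axis), 1 point per library. Libraries with Tat lie between 0.966 and 3.59 CPM of Gmnc at summed levels from 474 to 2090 CPM, against 313 to 1630 CPM without Tat, and the 3 libraries with Amlexanox alone, drawn as open diamonds, are low on both axes or on the summed level.

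Of all genes tested, those whose 16 group means were most like those of Gmnc were AABR07028488.1 (Pearson r = 0.98), Pi15 (0.97), AABR07044388.2 (0.97), Nkain4 (0.97), Ntsr2 (0.97) and Psat1 (0.97). Psat1 encodes an enzyme of serine synthesis and Ntsr2 a neurotensin receptor, and none of the 6 is a structural member. Ntsr2 is also among the astrocyte markers counted below. The 16 means include those of Control and Tat, whose Gmnc levels chose the set. Nkain4 fell with Tat in compound-treated cultures by 1.39 (SE 0.17) and Ntsr2 by 1.83 (SE 0.22).

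Other genes of the motile cilium, taken from lists that share no member with the set, were counted in the same comparisons. In the pooled Tat comparison of compound-treated cultures 5 of 23 genes for dynein arm assembly and docking rose and 0 fell (21.7%, against 26.7% of all genes rising, median 0.29), for example Dnali1 (0.68, SE 0.18, FDR = 0.002) and Dnaaf5 (0.38, SE 0.11), while Dnal1 was at -0.04 (FDR = 0.479). Of 23 genes of the nexin-dynein regulatory complex, the molecular ruler and the central pair 7 rose (30.4%) and 1 fell (median 0.30), led by the central pair gene Spag17 (1.57, SE 0.23). The gene that fell was Tcte1 (-0.69, SE 0.12). Of 55 other genes of motile cilia 18 rose (32.7%) and 0 fell (median 0.34), among them Tppp3 (0.93, SE 0.23) and Adgb (1.49, SE 0.21). These rises, like those of the members, rested on the Amlexanox cultures. Without them, an alternative added after the data had been seen, 0, 1 and 2 genes of these 3 lists rose and 0, 1 and 2 fell, with medians of -0.04, -0.04 and -0.03, while 20.6% of all genes rose and 15.6% fell. With Amlexanox alone against Control 18, 17 and 44 genes of these lists fell and 0 rose, and in Tat-Cocaine-Tazemetostat against Tat-Cocaine 18, 18 and 48 rose and 0 fell. The lists of regulators and centriole genes (26 genes, 8 higher and 5 lower with Tat, median 0.09) and of intraflagellar transport and primary cilium genes (54 genes, 13 higher and 7 lower, median 0.08) had medians nearer to 0. Gmnn, which encodes geminin, a binding partner of both Gmnc and Mcidas, rose (0.69, SE 0.12). Of 37 Notch and BMP signalling genes 6 rose (16.2%) and 14 fell (37.8%, median -0.06), Hes6 by -0.66 (SE 0.06) among the latter. For reference, 13 of 14 inflammatory genes known to respond to Tat in these libraries rose (median 2.95), a list that is not independent of the data.

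Markers of other cells moved with several of these results, and their part in them was not tested. In the pooled Tat comparison 26.7% of all genes rose and 22.1% fell. There 3 of 7 ependymal markers rose and 0 fell (median 0.41), with Rarres2 at 1.62 (SE 0.19) and Ccdc153 at 0.41 (FDR = 0.173). The list overlaps in function with the members, since Ccdc153, Ak7 and Dynlrb2 are themselves axonemal. Choroid plexus markers (8 tested, 1 higher and 1 lower, median 0.15) left out Kl, Otx2 and Prlr, which did not pass the filter and had means under 0.5 CPM. Astrocyte markers (12, 2 higher and 7 lower, median -0.37), radial glia markers (11, 2 higher and 5 lower, median -0.14) and neuronal markers (11, 0 higher and 4 lower, median -0.35) were lower on balance. Microglial markers (10, 6 higher and 0 lower, median 0.69) were higher. Oligodendrocyte markers (8, median -0.26) and oligodendrocyte precursor markers (4, median -0.23) gave 0 calls by limma, and those of endothelial, mural and meningeal cells 3 higher and 1 lower of 8 (median 0.11). Without the Amlexanox cultures 1 ependymal marker was higher (median 0.06), 7 astrocyte markers were lower and 0 higher, and 0 neuronal markers were called, by limma.

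The summed ependymal markers were at 173, 249 and 407 CPM in Control, 106, 95 and 38 CPM in Amlexanox and 476, 578 and 367 CPM in Tat-Cocaine-Tazemetostat cultures, so that all 3 Amlexanox libraries lay below Control and 2 of 3 Tat-Cocaine-Tazemetostat libraries above it. With Amlexanox alone 6 of 7 ependymal and 7 of 12 astrocyte markers fell, and 0 of 11 neuronal markers were called. The share of all genes falling in that comparison is given above. The astrocyte sum was 13819, 9110 and 5873 CPM in these 3 libraries, against 10662 to 12714 CPM in Control, and Amlexanox replicate 3, the lowest of them, had the highest neuronal sum of all libraries, 5035 CPM. In Tat-Cocaine-Tazemetostat against Tat-Cocaine 6 of 7 ependymal and 5 of 10 microglial markers rose while 9 of 11 neuronal markers and 3 of 8 oligodendrocyte markers fell. The neuronal sum was 1534, 1186 and 1818 CPM there and 3271, 3109 and 2542 CPM in Tat-Cocaine cultures, which did not overlap. Since CPM are relative to the whole library, a loss of neuronal RNA and a gain of RNA from other cells cannot be told apart in these values. In Tat-Amlexanox against Amlexanox cultures all 7 ependymal markers rose and 5 of 11 neuronal markers fell.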

How the data were processed

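The signal the authors deposited is CPM of 30211 genes in 48 libraries after TMM scaling, from directional poly(A) libraries. Their methods and the submitters' processing notes name STAR 2.7.2 and featureCounts (Subread 1.5.3). The rat build differs between them (Rnor_6.0 and mRatBN7.2), so no gene coordinates are given beyond RefSeq promoters on GRCr8. Whole reads could not be recovered (85.1 to 87.0% of low values whole within 0.02 read), and count models were not run. Columns of the authors' comparisons and their 16 group means were not used, and 0 columns of libraries were unmapped.

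limma 3.58.1 (R 4.3.3) was fitted once to log2(CPM + 0.5) of all 48 libraries, with a mean per group and an intensity trend. Tables were made with Python 3.11.15, pandas 2.3.3 and numpy 2.4.6, and the fit was tested on simulated data. The members and lists were chosen with earlier results of these data known. Genes named were the regulators, up to 6 largest changes in each direction and the 6 most abundant members, up to 3 per other comparison, and in lists the most abundant and the most significant genes. Genes named in comparisons added later were chosen after their values were seen. Alternatives were the pseudocount, filter, scaling, trend, weights, block, samples fitted and each library left out.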

Additional observations from a re-analysis of the deposited data

Results flagged for a closer look

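The response of Cfap100 to Tat differed among the 4 compounds by the F test over the compound-treated cultures (FDR = 0.0475 by limma). It was lower with Tat in 4OI cultures, in 3 of 3 libraries, and higher in Amlexanox cultures, in 3 of 3. Leaving out any of several single libraries, 4OI replicate 1 among them, brought the number of members called by this test from 1 to 0.

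The effect of Amlexanox differed among cultures without Tat, with Tat and with Tat and cocaine in 31 members by the F test, a comparison added after the data had been seen, of which 30 remain besides Gmnc, whose Control and Tat levels chose the set. The members were low with Amlexanox alone and 0 were called with Amlexanox in either background with Tat, by limma. The count was 1 without Control replicate 3 or without Amlexanox replicate 3.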

How the results depend on the processing

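The fall of Gmnc with Tat in compound-treated cultures held in all 38 alternatives, at -2.20 to -1.51. Ccno was at -1.53 to -0.46 there and passed the threshold in 2 of 38, and Mcidas in 1 of 38. Deup1 turned from 0.11 to -0.45 without the Amlexanox cultures, and lay between -0.051 and 0.27 with 1 library left out, below 0 without Amlexanox replicate 3, Tazemetostat replicate 1, Senicapoc replicate 2 or Tat-Tazemetostat replicate 2. The cause was not tested. For single genes, 843 values kept their call in other settings, 69 lost it and 3 gained it, and with a library left out 950 kept it and 180 lost it.

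The count of members called changed as follows. These counts are given without the shares of all genes and describe stability only. With no filter it was 0 for Tazemetostat pooled, 1 for cocaine pooled, 2 for Tat-Cocaine-4OI against Tat-Cocaine, 0 for the F test of Tat among the compounds and 20 for the F test of Amlexanox among backgrounds. With median ratio rescaling it was 5 for Tat-Cocaine-4OI and 0 for the F test of Tat, and without the trend 1 for cocaine pooled. With library weights, whose estimation did not fully converge, it was 38 for Tat pooled, 8 for Tat in 4OI, 17 in Tazemetostat and 10 in Senicapoc cultures, 6, 39 and 2 for Amlexanox, Tazemetostat and Senicapoc pooled, 17 for Tat-Cocaine-Amlexanox against Tat-Cocaine, 0 for Tat-Cocaine-4OI against Tat-Cocaine, 17 for Senicapoc against Control and 44 for the F test of Tat. In a fit to the groups compared alone, with fewer libraries for the spread, it was 1 for Tat in Tazemetostat cultures, 1 and 0 for Amlexanox and Tazemetostat pooled, and 0 for Amlexanox against Control, Tat-Cocaine-4OI against Tat-Cocaine and both F tests. Without 1 compound Tat pooled gave 34 (4OI) or 6 (Amlexanox), and without Amlexanox the genes called were 0 for dynein arm assembly, 2 for the regulatory complex and central pair, 4 for other motile cilium genes and 10 for intraflagellar transport. Without 1 background cocaine pooled gave 6 (no compound), 0 (4OI), 1 (Amlexanox), 0 (Tazemetostat) or 0 (Senicapoc).

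With 1 library left out, the counts ranged from 13 to 29 for Tat pooled, 1 to 3 in 4OI, 23 to 40 in Amlexanox, 1 to 3 in Tazemetostat and 2 to 4 in Senicapoc cultures, and from 0 to 15 for the F test of Tat (15 without Amlexanox replicate 1). They ranged from 1 to 4, 2 to 4, 0 to 24 and 0 to 1 for 4OI, Amlexanox, Tazemetostat and Senicapoc pooled (24 without Tat-Tazemetostat replicate 3), 1 to 3 for cocaine pooled, 5 to 45 for Amlexanox against Control, 1 to 42 for the F test of Amlexanox, 0 to 21 for Tat-Cocaine-4OI and 0 to 41 for Tat-Cocaine-Tazemetostat against Tat-Cocaine, and 32 to 40 for Tat with cocaine pooled. They were 0 throughout for Cocaine and Senicapoc against Control and for Amlexanox added to Tat or to Tat-Cocaine.

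A replicate block moved the count to 12 for Tazemetostat pooled and to 17 for Tat-Cocaine-4OI against Tat-Cocaine. Libraries with the same number deviated together in every pair (r over 0.1) for Tat added to Amlexanox and for 4OI, Tazemetostat or Senicapoc against Control. The same held for Tat-Amlexanox against Tat and for cocaine added to Tat-4OI, Tat-Amlexanox or Tat-Tazemetostat. In the comparisons moved by the block only part of the pairs did so. For Tazemetostat pooled these were 6 of 9 pairs (median r 0.45, lowest -0.23). For Tat-Cocaine-4OI against Tat-Cocaine it was 1 of 3 (median r -0.16). The main fit had no term for the replicate number. At 0.5 CPM, 8.58 to 15 reads, changes of Mcidas and Rsph6a are poorly resolved.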
